A study of Rattus norvegicus with 36 samples.

Results

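The genes described here are those whose RNA was higher in rat dorsal striatum after both schedules of cocaine than after saline, as chosen by a rule on these same counts. A gene was a member if its mean level over 9 RNA pools was at least 1 CPM (counts per 1000000 counts of a pool), if all 6 cocaine pools lay above all 3 saline pools, and if the mean of log2(CPM + 0.5) was at least 0.3 higher with cocaine. Of the 32402 gene IDs counted in each sample, 13986 reached the level of 1 CPM, and 25 of these met the whole rule. Cocaine against saline chose these genes, so their differences from saline are given as descriptions, with no test.

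The rats were Sprague-Dawley animals, 8 weeks old per the labels and male per the methods. Sal–Sal rats received 15 injections of saline. Sal–Coc rats received, per the labels, 13 injections of saline and then 3 of cocaine, which is a single binge day at the end. Coc–Coc rats received 15 injections of cocaine, a binge on every day. The 13 and 3 injections labelled for Sal–Coc add up to more than the 15 of the other groups. The paper describes 3 injections a day for 5 days, so the label of 13 does not match its design. All groups were killed on the day that followed their final injection. Both cocaine groups thus had cocaine on the last day, and no group here had cocaine on the earlier days only. Each group had 3 pools, numbered 5, 6 and 7, each holding RNA of a pair of rats, and each pool was sequenced as 4 technical replicates lettered a to d, which gave 36 samples.

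Cocaine blocks the dopamine transporter, which normally clears dopamine after its release, so dopamine rises around the spiny projection neurons that make up most striatal neurons. These neurons answer through dopamine receptors, with rapid induction of transcription factors such as Fos and, on repeated exposure, slower and longer-lasting changes in RNA. The dorsal striatum is known for its part in the learning of actions and habits. Tissue taken a day after the last injection lies past the peak of the rapid response. In bulk tissue, more cells of a type and more RNA per cell cannot be told apart.

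The counts carry Ensembl rat gene IDs, and the gene table used here paired 0 of these with a symbol. The members therefore have no names below. They are numbered 1 to 25 by the size of their cocaine difference, and IDs are given for members 1 and 2 only, chosen after their values were seen because their differences were the largest. The genes' functions, their chromosomes and promoters, and markers of the labelled tissue were not analysed here.

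Total counts ran from 29870775 to 39493867 per pool, and from 7317172 to 9992159 per technical replicate. Coc–Coc pool 5 stood apart over the whole transcriptome. In that pool 332 of the 13986 genes lay 2-fold or more from their median over the remaining pools, where no other pool had over 64 such genes, and its Spearman correlation across genes with any other pool was at most 0.9839, against at least 0.9904 among the other 8. Among the members, that pool was the lowest Coc–Coc pool for 11 members and the highest for 6. Without it the rule found 31 genes, 23 of them among the 25.

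The members made up a small share of the RNA. Together they took 0.0416%, 0.0434% and 0.0472% of the counts in Sal–Sal pools 5, 6 and 7, 0.0588%, 0.0603% and 0.063% in the same-numbered Sal–Coc pools, and 0.0587%, 0.0619% and 0.0657% in the Coc–Coc pools. The lowest cocaine pool was above the highest saline pool, which the rule fixed in advance, since it required this of each member. Their most abundant genes, members 6 and 7, held 65.9% of these counts.

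Member 1, ENSRNOG00000033984, had the largest difference. Its level was 1.18, 0.965 and 1.27 CPM in Sal–Sal pools 5, 6 and 7, then 1.57, 2.58 and 2.37 CPM in Sal–Coc and 2.79, 3.10 and 2.48 CPM in Coc–Coc. All 3 Coc–Coc pools and Sal–Coc pools 6 and 7 lay well above saline, and Sal–Coc pool 5 lay nearest to it. The group means were 1.14 ± 0.159, 2.17 ± 0.529 and 2.79 ± 0.308 CPM (SD, n = 3 pools each), that is 1.91 times saline in Sal–Coc and 2.45 times in Coc–Coc. The gene was rare: the counts behind these values ran from 33 to 122 per pool.

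Member 2, ENSRNOG00000042717, showed the same order of groups at a higher level. It stood at 8.41, 9.80 and 11.5 CPM in the Sal–Sal pools, at 14.4, 15.9 and 17.6 CPM in the Sal–Coc pools, and at 16.9, 22.8 and 21.7 CPM in the Coc–Coc pools. The lowest cocaine pool was again Sal–Coc pool 5, and it lay 0.31 above the highest saline pool in log2(CPM + 0.5), the widest gap of the 25. Means were 9.90 ± 1.55, 16.0 ± 1.60 and 20.5 ± 3.13 CPM (SD, n = 3), or 1.61 and 2.07 times saline, and counts ran from 271 to 896 per pool.

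Members 3 and 6 ran the other way, with Sal–Coc above Coc–Coc on average. Member 3 had 3.51, 2.43 and 3.97 CPM in Sal–Sal, 6.46, 6.33 and 6.35 CPM in Sal–Coc, and 4.03, 6.10 and 5.21 CPM in Coc–Coc. All 3 Sal–Coc pools lay above all 3 Coc–Coc pools, and Coc–Coc pool 5 was barely above saline. The means were 1.93 times saline in Sal–Coc and 1.55 times in Coc–Coc.

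Member 6 was an abundant gene. It had 112.6, 111.7 and 129.9 CPM in Sal–Sal, 169.8, 203.3 and 168.8 CPM in Sal–Coc, and 153, 132.9 and 183.7 CPM in Coc–Coc. The cocaine groups overlapped, with Coc–Coc pool 7 inside the range of Sal–Coc and pools 5 and 6 below it. Mean levels were 118.1 ± 10.3, 180.6 ± 19.7 and 156.5 ± 25.6 CPM (SD, n = 3), which put Sal–Coc at 1.53 times saline and Coc–Coc at 1.33 times.

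Member 7 was the most abundant of all, with a mean of 214.5 CPM over the 9 pools. Its values were 147.5, 179.7 and 188.4 CPM in Sal–Sal, 198.1, 191.5 and 263.8 CPM in Sal–Coc, and 225.4, 277.3 and 258.7 CPM in Coc–Coc. Sal–Coc pools 5 and 6 sat close above the highest saline pool, while Sal–Coc pool 7 was among the Coc–Coc values. The group means were 1.27 and 1.48 times saline.

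In members 4 and 5 the cocaine groups lay at nearly the same level. Member 4 had 18.4, 10.5 and 19.6 CPM in Sal–Sal, 27.0, 22.6 and 25.2 CPM in Sal–Coc, and 24.6, 21.7 and 26.9 CPM in Coc–Coc. Sal–Sal pool 6 was far below the other saline pools, and the ratios of the means, 1.54 and 1.51, include it. Member 5 had 15.1, 15.4 and 13.4 CPM in Sal–Sal, 20.9, 24.4 and 20.1 CPM in Sal–Coc, and 24.6, 18.6 and 21.2 CPM in Coc–Coc. Its saline pools were close together, and every cocaine pool stood clear of them, at 1.49 and 1.47 times saline.

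Member 17 had the smallest Coc–Coc difference of the 25, 0.21 in log2(CPM + 0.5). It had 18.2, 15.5 and 17.5 CPM in Sal–Sal, 27.7, 28.1 and 18.5 CPM in Sal–Coc, and 19.7, 20.5 and 19.1 CPM in Coc–Coc. Sal–Coc pools 5 and 6 carried the difference, since pool 7 and the Coc–Coc pools were just above saline. Its means were 1.45 times saline in Sal–Coc and 1.16 times in Coc–Coc.

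**Figure D1:**
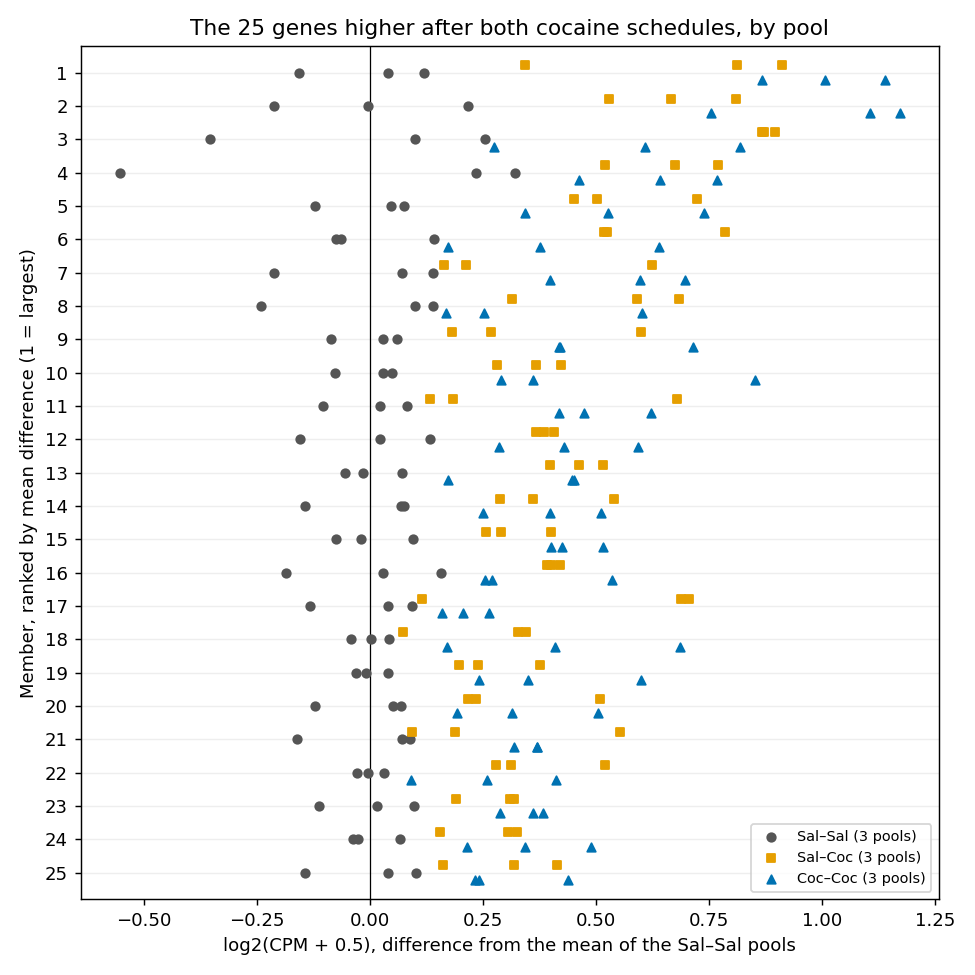
Difference of each member in each of the 9 pools from its own saline mean, in log2(CPM + 0.5), with a row per member, ordered by the size of the cocaine difference, and a symbol per treatment group. All 6 cocaine pools are above all 3 saline pools in every row because the rule required it, and the differences shrink from the top to the bottom.

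Members 8, 10 and 14 were rarer genes. Member 10 had 1.61, 1.46 and 1.64 CPM in Sal–Sal, 2.28, 2.17 and 2.02 CPM in Sal–Coc, and 3.24, 2.03 and 2.16 CPM in Coc–Coc, where pool 5 alone was high. Member 8 had 1.89, 1.96 and 1.39 CPM in Sal–Sal, 2.28, 3.09 and 2.86 CPM in Sal–Coc, and 2.89, 2.01 and 2.16 CPM in Coc–Coc, so Coc–Coc pools 6 and 7 were near the upper saline pools while Sal–Coc pools 6 and 7 stood clear of them. Member 14 had 4.47, 3.77 and 4.45 CPM in Sal–Sal, 6.36, 5.26 and 5.56 CPM in Sal–Coc, and 6.23, 5.72 and 5.12 CPM in Coc–Coc. In member 14 the groups stood at nearly the same level, with means 1.35 and 1.34 times saline.

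Members 19 and 21 show the lower end. Member 19 had 5.99, 6.32 and 6.09 CPM in Sal–Sal, 8.10, 7.11 and 7.33 CPM in Sal–Coc, and 7.34, 7.96 and 9.55 CPM in Coc–Coc, and its saline pools were close together, with an SD of 0.168 CPM. Member 21 had 30.9, 31.3 and 26.2 CPM in Sal–Sal, 43.3, 33.5 and 31.4 CPM in Sal–Coc, and 36.8, 38.1 and 38.1 CPM in Coc–Coc. It had the narrowest gap of the 25, since Sal–Coc pool 7 and Sal–Sal pool 6 differed by 0.0038 in log2(CPM + 0.5). The 15 members other than 1 to 7, 9, 17 and 21 had mean levels of 1.79 to 12.7 CPM over the 9 pools, and their group means were 1.21 to 1.57 times saline in Sal–Coc and 1.22 to 1.57 times in Coc–Coc.

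**Figure D2:**
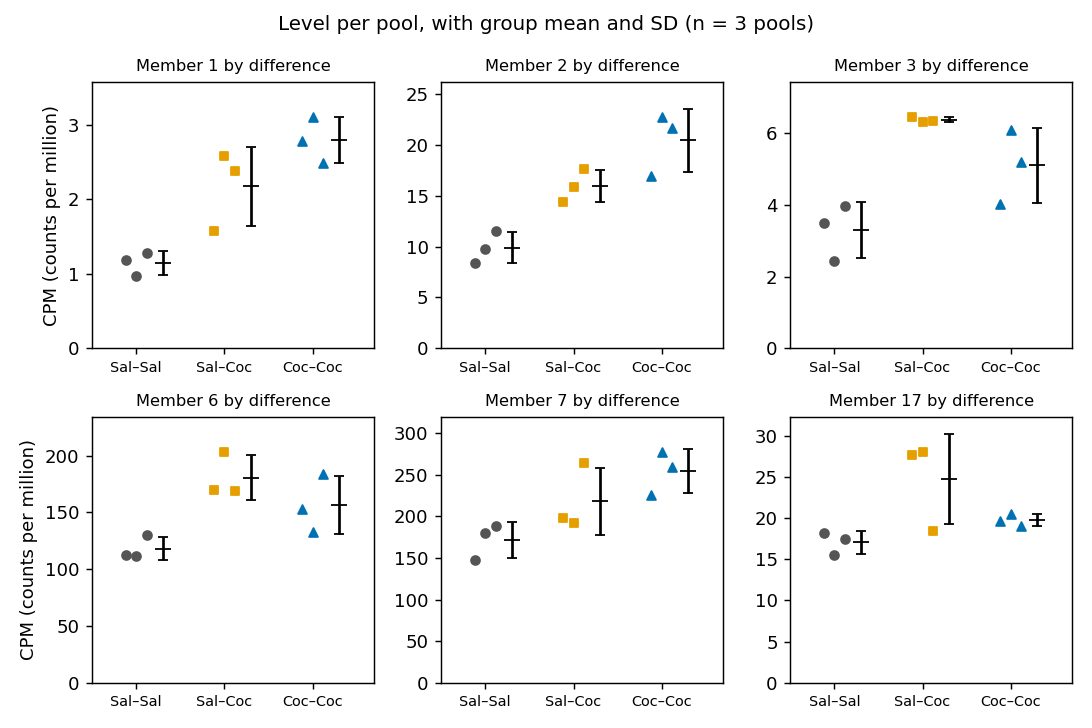
Level in CPM of members 1, 2, 3, 6, 7 and 17 in each pool, on linear axes from 0, with a point per pool (pools 5, 6 and 7 from left to right) and a bar for the group mean and SD of 3 pools. Members 1, 2 and 7 have their highest mean in Coc–Coc, and members 3, 6 and 17 in Sal–Coc.

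Over the 25 members the cocaine difference ran from 0.30 to 0.85 in log2(CPM + 0.5). Its median was 0.41, which is 1.33-fold in CPM + 0.5, and it was above 0.5 in 6 members. Against saline, Sal–Coc alone had a median difference of 0.37, from 0.25 to 0.88, and Coc–Coc alone a median of 0.40, from 0.21 to 1.01. The difference fell below 0.3 in 6 members in Sal–Coc and in 2 members in Coc–Coc. As ratios of mean CPM, both cocaine groups had a median of 1.35 times saline, with a range of 1.21 to 1.93 in Sal–Coc and of 1.16 to 2.45 in Coc–Coc. No member reached a cocaine difference of 1 over the 6 cocaine pools, which would be 2-fold in CPM + 0.5. As ratios of mean CPM, which carry no added 0.5, Coc–Coc alone was at 2.45 times saline in member 1 and 2.07 times in member 2.

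The rule required every cocaine pool to lie above saline, and the median amount over the members was similar between pools. Single members varied more, as in member 17, from 0.115 in Sal–Coc pool 7 to 0.705 in Sal–Coc pool 6. The median of the members' differences from saline, taken pool by pool, was 0.41, 0.33 and 0.39 in Sal–Coc pools 5, 6 and 7. It was 0.42, 0.40 and 0.42 in Coc–Coc pools 5, 6 and 7. The lowest cocaine pool was Sal–Coc pool 6 in 6 members, Sal–Coc pool 7 in 5, Coc–Coc pools 5 and 6 in 4 each, and Sal–Coc pool 5 and Coc–Coc pool 7 in 3 each. The highest saline pool was pool 7 in 13 members and pool 5 or 6 in 6 each, so Sal–Sal pool 7 set the lower edge most often.

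The rule needs only that the pools do not overlap, and for most members the gap between the groups was narrow. From the highest saline pool to the lowest cocaine pool it ran from 0.0038 to 0.31 in log2(CPM + 0.5), with a median of 0.098, and it was above 0.1 in 12 members. Set against the counting error of those same pools, the gap was under 1 standard error in 17 members, between 1 and 2 in 6, and over 2 in members 2 and 5. For the 17 members, counting error alone was therefore as large as the distance that decided membership. The rule forced every gap above 0, and the pools compared were picked as the extremes of these same counts. The ratios are therefore descriptions and not a test of any member, members 2 and 5 included. The lowest count of any member in any pool was 30, in member 9, whose level was 0.962, 0.994 and 0.85 CPM in Sal–Sal, 1.67, 1.13 and 1.23 CPM in Sal–Coc, and 1.42, 1.86 and 1.42 CPM in Coc–Coc. Reads carried no molecular identifiers, so this error covers counting only.

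The technical replicates show the same limit. Within a pool, the members' counts differed between the 4 technical replicates about as much as counting predicts, with a mean chi-square of 1.05 per degree of freedom over 225 pools and genes. The rule was also applied to the 9 samples of a single letter. It found 47, 33, 41 and 53 genes for a, b, c and d, among them 12, 9, 9 and 13 of the 25. The groups of pools stayed apart in all 4 letters in members 2 and 5, in 3 letters in 4 members, in 2 letters in 8, in 1 letter in 8, and in 0 letters in 3. Over all genes of at least 1 CPM, 102, 78, 96 and 103 were higher without overlap in a, b, c and d, and 598, 565, 594 and 580 lower. The letters are parts of the sums that chose the members, so the members' separation within them is no independent support. They are also repeats of the same RNA, so they bear on counting error and not on the spread between rats. Whether library preparation was repeated between the letters is not known here.

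Members were mostly genes of low abundance. Their median level was 5.21 CPM, within a range of 1.28 to 214.5 CPM, against a median of 23.2 CPM over the 13986 genes. Under 10 CPM lay 17 of the 25 (68%), against 30.3% of the 13986 genes, and under 5 CPM lay 12 (48%), against 18.6%. Genes that met the mirrored rule, with every cocaine pool below every saline pool and a difference of at least 0.3, had a median of 20.7 CPM, and 33.8% of them were under 10 CPM. The part of counting error in this difference was not tested.

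Genes that were higher were fewer than genes that were lower. All 6 cocaine pools lay above all 3 saline pools in 95 of 13986 genes (0.679%), and below them in 731 (5.23%). With the difference of 0.3 added, 25 genes (0.179%) were higher and 240 (1.72%) were lower. A further 147 genes differed by 0.3 or more upwards, but their pools overlapped. At a difference of 0.5 the counts were 6 higher and 57 lower, and at 0.8 they were 2, members 1 and 2, and 10. With a pool left out, which loosens the requirement, more genes were free of overlap. The 95 higher genes became 280, 208 and 250 without Sal–Sal pools 5, 6 and 7, 160 without Sal–Coc pool 6 and 259 without Coc–Coc pool 6. The 731 lower genes became 1399 without Sal–Sal pool 5, 1330 without Sal–Sal pool 6 and 1183 without Coc–Coc pool 5. The 240 lower genes past 0.3 became 433 without Sal–Sal pool 6. In each of these settings the lower genes still outnumbered the higher ones.

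This split depended on how the pools were scaled. With CPM by pool total the median of the 13986 genes was itself 0.03 lower with cocaine, whereas with TMM, which scales libraries so that most genes do not change between them, it was 0.01 higher. TMM factors ran from 1.015 to 1.036 in Sal–Sal, from 0.976 to 1.002 in Sal–Coc and from 0.962 to 1.03 in Coc–Coc. Of the genes without overlap, 11.5% of 826 were higher by pool total and 46.6% of 714 by TMM. By TMM 333 genes were higher without overlap and 381 lower, and the whole rule gave 54 higher and 121 lower genes, with all 25 members among the 54. Beyond a difference of 0.5 the scaling moved the higher count little, at 6 genes by either method, while the lower count went from 57 to 36.

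**Figure D3:**
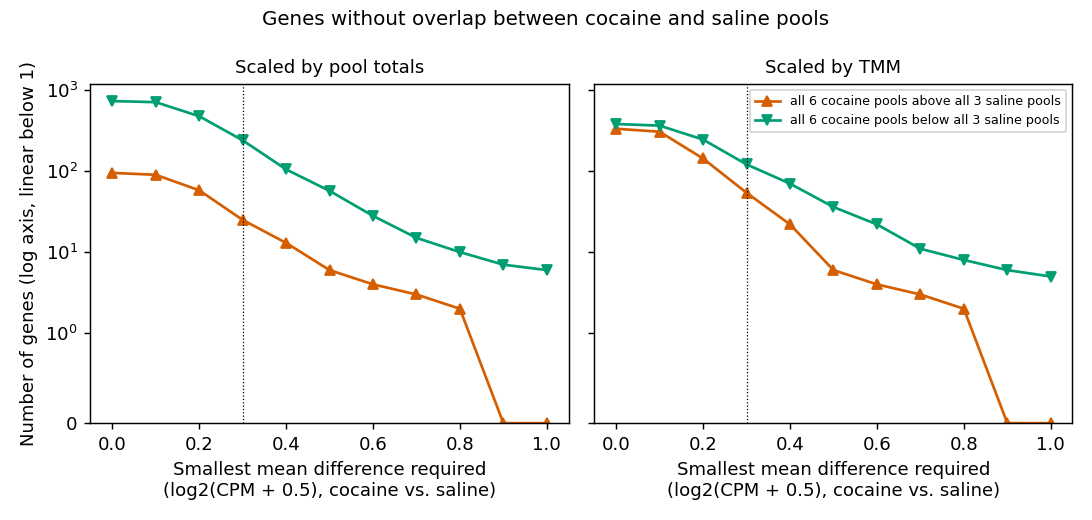
Number of genes without overlap between cocaine and saline pools on a log axis that is linear below 1, against the smallest mean difference required in log2(CPM + 0.5), for genes higher and lower with cocaine, scaled by pool totals on the left and by TMM on the right. With no least difference 95 genes were higher and 731 lower by pool totals, and 333 and 381 by TMM, and from a difference of 0.5 the curves for higher genes are the same, with 6 genes at 0.5 and 0 at 0.9.

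The limit of 0.3 fell within a run of closely spaced differences. The last 3 inside had differences of 0.31, 0.31 and 0.30 at 12.7, 7.83 and 4.62 CPM. The first 3 outside that met every other criterion had differences of 0.30, 0.29 and 0.28 at 13.6, 3.25 and 21.2 CPM. The count of 25 rests also on the number of pools: leaving out a pool loosens the rule, and it then found 95 genes without Sal–Sal pool 5, 49 without Sal–Sal pool 6, 54 without Sal–Sal pool 7, 52 without Sal–Coc pool 6 and 50 without Coc–Coc pool 6, with 24, 19, 23, 24 and 23 of the 25 among them.

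The rule did not contrast the cocaine schedules with each other. That comparison asks whether cocaine on every day gave other levels than cocaine on the last day alone. The rule did use the pools of both schedules, since it required all of them to lie above saline. It left out genes that were high after a single schedule but overlapped saline after the other. The members are therefore a selected set for this comparison too, which limits how far they could differ between schedules. The comparison was tested with edgeR's quasi-likelihood test over all 15884 genes with enough counts, which included all 25 members. After Benjamini-Hochberg adjustment 0 of the 15884 genes (0%) passed 0.05, so no member was called. The lowest adjusted p-value over all genes was 0.346 with edgeR, and those of the members ran from 0.68 to 0.993. With an unadjusted p-value under 0.05 there were 1116 genes (7.03%) and 2 of the 25 members. DESeq2 called 2 genes after adjustment, neither a member.

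The members with an unadjusted p-value under 0.05 pointed in opposite directions. Member 2 was higher in Coc–Coc by a log2 fold change of 0.35 ± 0.15 (SE, edgeR, p = 0.0433, adjusted p = 0.68). Its Coc–Coc pools 6 and 7 exceeded every Sal–Coc pool, and Coc–Coc pool 5 lay among them. Member 17 was lower in Coc–Coc, with a log2 fold change of -0.33 ± 0.14 (SE, edgeR, p = 0.0437, adjusted p = 0.68), although Sal–Coc pool 7 lay below the Coc–Coc pools. Neither difference passed the adjustment.

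Members 1, 3, 6 and 7 did not reach 0.05 before adjustment. For member 1 the log2 fold change was 0.34 ± 0.20 (SE, edgeR, p = 0.115, adjusted p = 0.686), and for member 3 it was -0.33 ± 0.19 (SE, edgeR, p = 0.121, adjusted p = 0.686). Members 6 and 7 had -0.22 ± 0.11 and 0.21 ± 0.15 (SE). The Coc–Coc pools lay entirely above the Sal–Coc pools in 0 members, against 4.83% of the 13986 genes, and entirely below in 1, member 3, against 5.22%. The rule held both schedules above saline in the members but not in the 13986 genes, so these shares are descriptions.

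**Figure D4:**
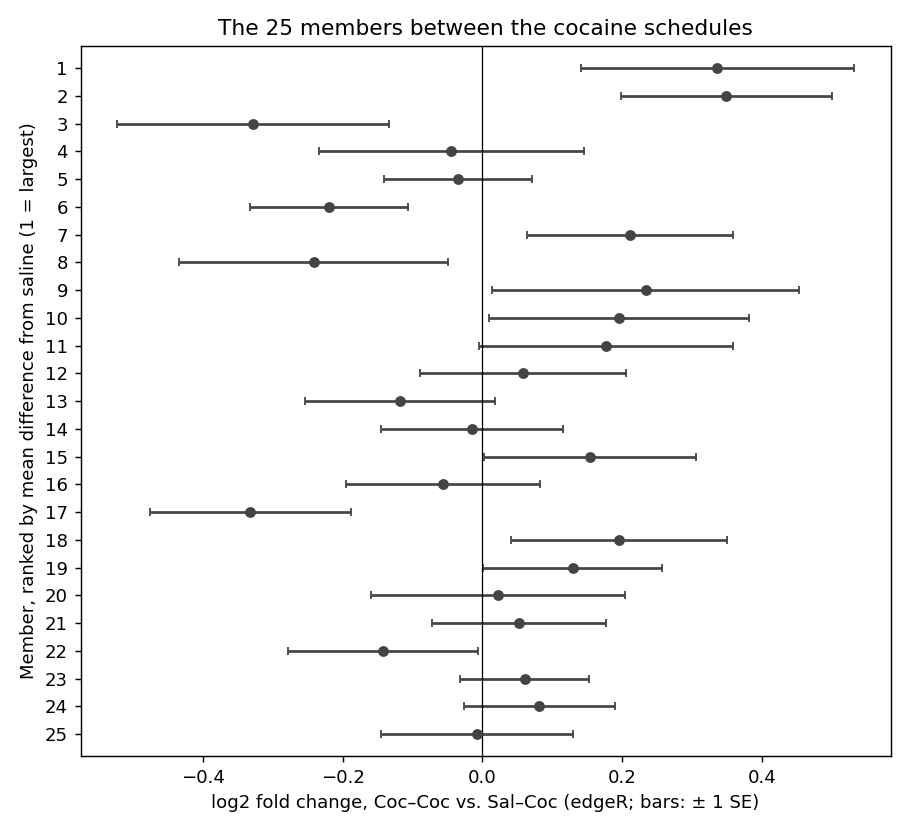
Difference of each member between Coc–Coc and Sal–Coc as the edgeR log2 fold change, with bars for the standard error and a row per member, ordered by the cocaine difference. Values run from -0.33 to 0.35, on both sides of 0, and none passed the adjusted threshold of 0.05.

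Across the members the fitted log2 fold changes from Sal–Coc to Coc–Coc ran from -0.33 to 0.35, with a median of 0.05, against a median of 0.01 over all genes tested. Standard errors ran from 0.092 to 0.22 with a median of 0.15. Of the 25, 14 were higher in Coc–Coc in the edgeR fit and 15 by pool totals (60%, against 55.3% of the 13986 genes). On the scale of log2(CPM + 0.5), the cocaine groups differed by less than 0.1 in 10 members and by less than 0.2 in 19, and the median size of the difference was 0.13, against 0.09 over the 13986 genes. The members, unlike all genes, were chosen with both schedules above saline, so these values are not free of the rule. A p-value that misses the threshold does not show that the schedules gave the same levels. The p-values measure the spread between pools of a pair of rats each.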

How the data were processed

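The authors prepared stranded libraries from poly(A) RNA, ran single reads on a NextSeq sequencer, aligned the trimmed reads to the Ensembl rat genome with STAR and removed reads that mapped to more than 1 place, so genes with near-identical copies are undercounted. The submitters' processing notes list bcl2fastq 2.18.0.12 and HTSeq 0.5.3. The deposited values are raw counts, whole numbers of reads per gene, with no normalisation. The extraction text names nucleus accumbens and caudate putamen, as the paper studied both the ventral and the dorsal striatum. The samples used here have dorsal striatum as their source.

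Here the counts of 4 technical replicates were summed per pool, so that n = 3 per group. CPM used pool totals. The members, lists and tests were chosen with earlier results of these data known. Coc–Coc was tested against Sal–Coc in R 4.3.3 with edgeR 4.0.16 (filterByExpr with a minimum count of 10 and a minimum total of 15, TMM, a mean per group over 9 pools, quasi-likelihood F-test, two-sided, Benjamini-Hochberg over 15884 genes, threshold 0.05). The fit was tested on simulated data. Alternatives were DESeq2 1.42.0, limma 3.58.1 with voom, other scalings, pseudocounts and filters, the pool number as a block, single technical replicates and leaving out each pool. The genes to be named were the largest differences, the most abundant, the smallest p-values between schedules, gene list members and those nearest the limit of 0.3. As 0 of 32402 IDs matched a symbol in the RefSeq table for GRCr8, gene lists, cell type markers and sequences were not used, and at most 2 IDs were to be given.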

Additional observations from a re-analysis of the deposited data

How the results depend on the processing

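The number of genes meeting the rule, 25, became 54 with TMM scaling and 51 with DESeq2's size factors, with all 25 among them. These scalings moved the median cocaine difference of all genes of at least 1 CPM upwards, from -0.0327 to 0.0129 and 0.0099. Keeping the 25 is therefore no separate support for them. The number became 11 with a pseudocount of 2 and 31 with 0.1. It was 13 with a minimum mean of 5 CPM and 35 with 0.1 CPM. In single technical replicates it was 47 in a, 33 in b, 41 in c and 53 in d. Leaving out each pool gave 29 to 95 genes, since fewer pools loosen the rule. The members' median difference from saline was 0.419 in Sal–Coc and 0.437 in Coc–Coc with TMM, and ran from 0.346 to 0.403 and from 0.39 to 0.432 when a pool was left out.

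For Coc–Coc against Sal–Coc, edgeR called 0 genes after adjustment and 1116 at an unadjusted p under 0.05, DESeq2 called 2, and leaving out each pool gave 0 with edgeR (757 to 2132 unadjusted). The number of members with an unadjusted p under 0.05, which was 2, became 0 with limma voom and 0 with the 6 cocaine pools alone. With a pool left out it ran from 0, without Sal–Coc pool 6, to 3, without Sal–Coc pool 7. The share of all genes tested was 7.03% in the main fit, 6.54% with limma voom and 4.29% with the 6 cocaine pools alone. It was 6.55% without Sal–Coc pool 6 and 4.71% without Sal–Coc pool 7. With a replicate block, that is the number of the pool as a term, edgeR gave 0 calls, 1096 genes (6.9%) unadjusted and 2 members unadjusted. Same-numbered pools were different rats, and no pairing was used in the main fit. The deviations of same-numbered Sal–Coc and Coc–Coc pools correlated at 0.156, 0.0761 and 0.0112 for numbers 5, 6 and 7. Pools of different numbers were not correlated, so whether a number marks shared handling was not tested. Members 1 and 2 kept the direction of their difference between the schedules under every alternative run. Their log2 fold changes were 0.17 to 0.46 and 0.24 to 0.49. The alternatives reuse the same pools, so a kept direction is no independent support. Neither difference passed the adjustment in any of them, with a lowest adjusted p of 0.431 (edgeR, member 1, without Coc–Coc pool 7). The limits are 3 pools a group, counts as low as 30, and members without names, so gene lists, markers, promoters and sequences were not run.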
